A study of Mus musculus with 6 samples.

Results

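The genes described here are 10 components of the microRNA pathway: the Argonaute genes Ago1, Ago2, Ago3 and Ago4, the processing genes Drosha, Dgcr8, Xpo5, Dicer1 and Tarbp2, and the Argonaute partner Tnrc6a. They were taken by symbol, older aliases included, and 6 of the 10 had a probe set annotated to them alone in the deposited table. These were 15 probe sets in all, among the 20380 such probe sets of that table. Ago1, Ago3, Ago4 and Drosha had none there and are not described further. Whether the array itself carried probe sets for these genes is not known here. Among the 12393 genes tested, each gene was represented by its probe set with the highest mean over the 6 arrays, called its main probe set below.

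The series set 3 arrays of 344SQ cells carrying a control vector against 3 arrays of 344SQ cells in which miR-34a was expressed from an inducible construct. 344SQ is a metastatic mouse lung cancer line with high Zeb1. All 6 samples come from this single line, and the labels do not say whether the control cells were also treated with an inducer. According to the design text the RNA came from primary tumours of injected mice, and tumours are also named in the miR-34a titles, whereas the remaining fields describe cells in culture. The labels name no separate animals or cultures behind the replicates. The p-values below therefore reflect the spread of these 6 samples alone, part or all of which may be technical.

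Most microRNAs are transcribed as long primary transcripts. In the nucleus the Microprocessor, made of the nuclease Drosha and its RNA-binding partner Dgcr8, cuts out a hairpin, and Exportin-5, the product of Xpo5, carries it to the cytoplasm. There Dicer1, helped by the RNA-binding protein Tarbp2, removes the loop, and 1 strand of the resulting duplex stays in an Argonaute protein. Argonaute then binds messenger RNAs through the seed of the microRNA and recruits a GW182 protein such as Tnrc6a, which brings in deadenylases and decapping factors. Ago2 is the mammalian Argonaute known for cutting fully matched targets.

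The hairpin of miR-34a is shown because it is what distinguishes the groups and what the proteins of these genes act on. It lies on the plus strand at chr4:150068454-150068555 in GRCm38.p6, per RefSeq, and is 102 bases long, with both mature arms in capitals.
Mir34a hairpin: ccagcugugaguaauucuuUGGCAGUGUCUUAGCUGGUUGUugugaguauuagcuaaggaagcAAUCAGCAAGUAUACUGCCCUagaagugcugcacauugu
The mature arms follow, each with its seed, bases 2 to 8 from the 5′ end, in capitals. The labels do not say which arm was followed.
mmu-miR-34a-5p: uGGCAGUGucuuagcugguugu
mmu-miR-34a-3p: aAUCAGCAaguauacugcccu
The arrays measured messenger RNA, and neither arm was measured.

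The deposited intensities had medians between 466.7 and 484.2 per array. On the first principal component of the genes tested vector 1 stood apart at -43.33, while the other vector arrays were at -5.42 and -8.75 and the miR-34a arrays between 16.25 and 21.66. Of the markers of other cell types, 3 of 14 fibroblast genes (Col6a1, Col6a2 and Thy1) and 4 of 9 mast cell genes (Cma1, Cpa3, Fcer1a and Tpsb2) were higher in miR-34a samples. In the macrophage list C1qb and Fcgr1 were higher and Mrc1 lower, of 14. Of the neutrophil genes S100a9 was lower, of 8. At an unadjusted p under 0.05 in limma 6 macrophage genes were higher and 1 lower. Median changes were 0.71 for fibroblast, 0.50 for macrophage, 1.14 for mast cell and -0.034 for neutrophil genes, beside 0.024 over all genes. Changes were above 0 for 13 of 14 fibroblast, 10 of 14 macrophage, 9 of 9 mast cell and 4 of 8 neutrophil genes, beside 54.3% of all genes. In limma 0 of 12 T and NK cell, 0 of 7 B cell and 0 of 10 endothelial genes passed, with 2, 0 and 2 at an unadjusted p under 0.05. Over all genes 11.7% passed in either direction, and at an unadjusted p under 0.05 17.0% were higher and 11.3% lower. The summed log2 level of the fibroblast list ran from 14.71 in vector 1 to 16.07 in vector samples and from 15.89 to 16.38 in miR-34a samples. It ran from 14.34 to 14.86 and from 14.89 to 15.09 for macrophage, from 11.70 to 12.68 and from 12.56 to 13.30 for mast cell, and from 11.74 to 13.32 and from 11.28 to 11.46 for neutrophil genes. No listed marker was at the lowest value of 1 on any array, and of these markers only the neutrophil gene Elane was under 100 on all 6. Of 12 epithelial genes Ocln passed as higher, and Krt8, Krt18 and Cdh1, which mark epithelial cells, were between 12237 and 24926 on every array. The list was not uniformly bright. By mean level among the genes tested, the median percentile of its members was 62.8, and the lowest was 18.9, for Esrp1. In bulk samples fewer cells of a type and less RNA per cell cannot be told apart. The part of these markers in the results below was not tested.

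Ago2 messenger RNA was 1.39-fold higher in miR-34a than in vector samples, and it was the only 1 of the 6 measured genes to pass the test. A gene passed, or was called, when its adjusted p fell under 0.05 in limma, which was fitted over all 12393 genes with Benjamini-Hochberg adjustment. The background was that 6.50% of all genes passed as higher, 5.25% as lower and 11.7% in either direction. Among the 6, 1 passed as higher and 0 as lower, and the same 1 and 0 had an unadjusted p under 0.05. Their median log2 change was 0.046, beside 0.024 over all genes. The groups did not overlap for 2 of the 6, Ago2 and Tnrc6a, where 34.9% of all genes had groups that did not overlap. All changes are given as miR-34a minus vector, on the scale of log2(intensity + 16).

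**Figure D1:**
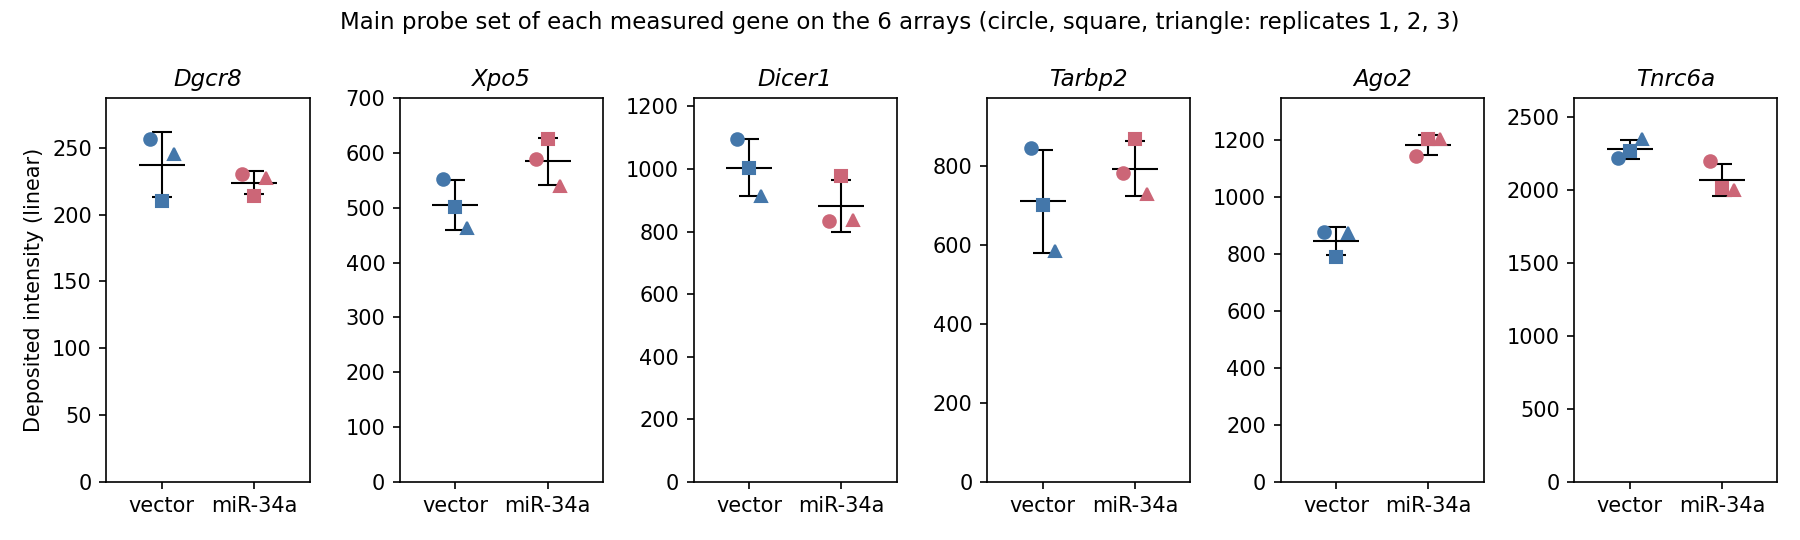
Deposited intensity (linear axis from 0, scaled per gene) of the main probe set of the 6 measured genes, in order of their place in the pathway. Points are single arrays and bars the mean ± SD of 3 arrays. In the Ago2 panel the miR-34a arrays, at 1144 to 1204, lie above the vector arrays, at 790.5 to 877.

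Dgcr8, the RNA-binding subunit of the Microprocessor, had 1 probe set. Its intensities were 256, 209.9 and 245 in vector 1, 2 and 3 and 231, 214 and 227 in miR-34a 1, 2 and 3. The miR-34a values lay inside the vector range. The log2 change was -0.074 ± 0.096 (SE, n = 3 per group; limma adjusted p = 0.668), with a 95% interval from -0.30 to 0.15.

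Xpo5, the export receptor for hairpin precursors, also had 1 probe set, whose suffix (_s_at) is Affymetrix's mark for probes that can match more than 1 transcript. Its intensities were 553, 501 and 462 in vector 1, 2 and 3, and 589, 625 and 540.1 in the miR-34a arrays. The groups overlapped only through vector 1, which lay above miR-34a 3. The change was 0.21 ± 0.099 (SE; limma adjusted p = 0.227), with an interval from -0.027 to 0.44. With arrays weighted by their fit the change was 0.26 and passed (adjusted p = 0.0497). Without vector 1 it was 0.27 (adjusted p = 0.0990), and its adjusted p over all alternatives ran from 0.0497 to 0.503.

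Dicer1, the nuclease that cuts the loop from the precursor, had 2 probe sets. The main one read 1096, 1005 and 913 in the vector arrays and 833, 978 and 837 in the miR-34a arrays. The groups overlapped, with miR-34a 2 above vector 3. The change was -0.18 ± 0.11 (SE; limma adjusted p = 0.307), with an interval from -0.43 to 0.065. The second probe set read 301, 403 and 389.9 in vector and 381, 441 and 350.5 in miR-34a arrays. Its change was 0.10, of opposite sign, and did not pass either.

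Tarbp2, the RNA-binding partner of Dicer1, had a main probe set at 845, 701 and 584 in vector and 782, 867 and 728 in miR-34a arrays. The vector arrays spread more widely than the miR-34a arrays, and 2 of the miR-34a arrays lay inside their range. The change was 0.17 ± 0.14 (SE; limma adjusted p = 0.502), with an interval from -0.17 to 0.50. It was 0.30 without vector 1, the highest vector array, and 0.037 without vector 3, the lowest. The second Tarbp2 probe set changed by 0.073 and had the same order of vector arrays, 449, 383 and 300.1.

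Ago2 had 1 probe set. Its intensities were 877, 790.5 and 874 in vector 1, 2 and 3 and 1144, 1204 and 1204 in miR-34a 1, 2 and 3. Each miR-34a array was above each vector array, and the gap between the groups was wider than the range within either. The mean log2 level was 9.75 ± 0.084 in vector and 10.23 ± 0.042 in miR-34a samples (SD, n = 3). The change was 0.48 ± 0.080 (SE; limma adjusted p = 0.0156), with a 95% interval from 0.29 to 0.67. Over all genes, 988 (7.97%) had a larger rise and 440 a smaller p.

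The size of the Ago2 difference moved little with the arrays used, from 0.43 without vector 2 to 0.50 without vector 1. Its call was lost, among other fits, with 2 in place of 3 miR-34a arrays: the adjusted p became 0.0640, 0.0525 and 0.0809 when miR-34a 1, 2 or 3 was left out. Fits without 1 array have fewer samples and mostly passed fewer genes, for example 226 in place of 1456 once miR-34a 3 was left out. Without vector 1, the array that stood apart, Ago2 passed with an adjusted p of 0.00957. With each array centred on its median, which turned the split of all called genes from 805 higher and 651 lower to 451 and 992, Ago2 changed by 0.38 (adjusted p = 0.0296).

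**Figure D2:**
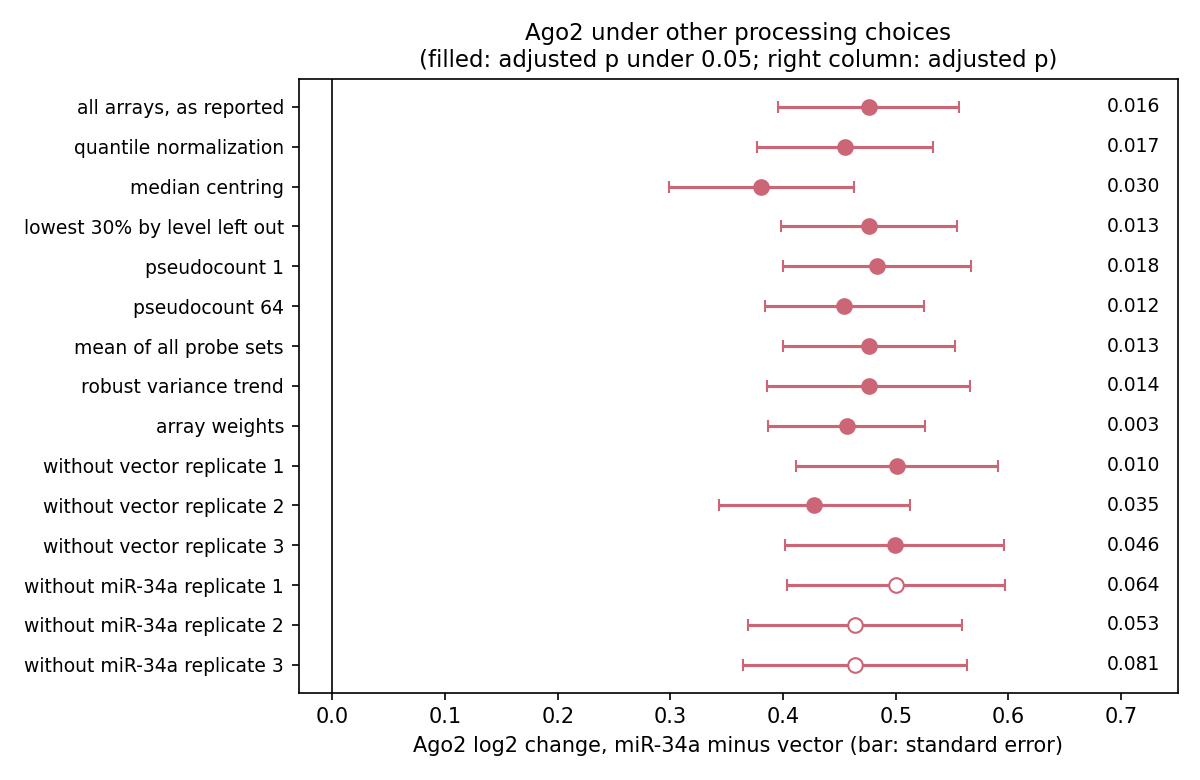
Ago2 log2 change (miR-34a minus vector, horizontal axis) as reported and under other processing choices, with its standard error as the bar and its adjusted p at the right. All estimates lie between 0.38 and 0.50, and the open points, without 1 miR-34a array, are the 3 of those plotted that missed the threshold. The fit with replicate number as a block, not plotted, also missed it (0.48, limma adjusted p = 0.0633).

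A ratio within an array does not depend on how arrays were scaled, so the Ago2 change was also set against each of the other 5 main probe sets. Ago2 moved above Dicer1 by 0.66 ± 0.11 (SE of the difference of changes), above Tnrc6a by 0.61 ± 0.085 and above Dgcr8 by 0.55 ± 0.062. It moved above Xpo5 by 0.27 ± 0.11 and above Tarbp2 by 0.31 ± 0.17. The ratio did not overlap between groups in 4 of the 5 pairs, Tarbp2 being the exception. The ratio of Ago2 to 77.0% of all other genes did not overlap either, so 4 of 5 is near the background and is no result about these genes. The exact permutation test, two-sided, gave p = 0.1 for those 4, the smallest that 3 arrays against 3 allow, and 0.3 for Tarbp2. Adjusted over the 5 pairs these were 0.125 and 0.3 by the same exact permutation test.

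Tnrc6a, the GW182 protein that links Argonaute to deadenylation, had 8 probe sets, and these differed in sign. The main one read 2222, 2265 and 2349 in vector and 2198, 2011 and 2000 in miR-34a arrays. All 3 miR-34a arrays were below the vector arrays, miR-34a 1 by the least. The change was -0.14 ± 0.079 (SE; limma adjusted p = 0.303), with an interval from -0.32 to 0.047.

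Over the 8 Tnrc6a probe sets, 3 changes were below 0 and 5 above. The lowest was 1434899_s_at, at 1417, 1338 and 1653 in vector and 1245, 1097 and 1103 in miR-34a arrays. Its groups did not overlap, where 35.5% of all probe sets had groups that did not overlap. Fitted over all 20380 probe sets, of which 6.47% passed as higher and 7.18% as lower, the 15 probe sets described here had 1 higher call, that of Ago2, and 0 lower in limma, with 1 and 1 at an unadjusted p under 0.05, beside 15.3% and 13.7% of all probe sets. The change of 1434899_s_at was -0.35 ± 0.11 (SE; limma adjusted p = 0.0762). The probe set passed as lower with median centring (adjusted p = 0.0407) and with array weights (adjusted p = 0.0123). The highest was 1439246_x_at, at 1033, 1516 and 1099 in vector and 1617, 1414 and 1377 in miR-34a arrays, with a change of 0.29 ± 0.15 (SE; limma adjusted p = 0.268). Its groups overlapped through vector 2, and without vector 2 it passed as higher at 0.45 (adjusted p = 0.0422). The suffix _x_at is Affymetrix's mark for probes that may also match other sequences.

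The signs of the Tnrc6a probe sets were compared within arrays. The ratio of the main probe set to each of the other 7 did not overlap between groups for 5 of them, where 36.7% of all other probe sets gave such a ratio to it. Against 1439246_x_at the main probe set moved by -0.43 ± 0.17 (SE of the difference of changes), and against 1455128_x_at by -0.35 ± 0.074. Against 1434899_s_at it moved the other way, by 0.21 ± 0.074. Over the 9 such pairs of Dicer1, Tarbp2 and Tnrc6a the lowest exact permutation p, two-sided, was 0.1, the smallest possible here, and 0.18 after adjustment over the pairs. For Dicer1 the ratio of the 2 probe sets overlapped between groups, with a difference of -0.29 ± 0.20 (SE; exact permutation p = 0.2, 0.257 adjusted). With the mean of all 8 probe sets Tnrc6a changed by 0.042 in place of -0.14.

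**Figure D3:**
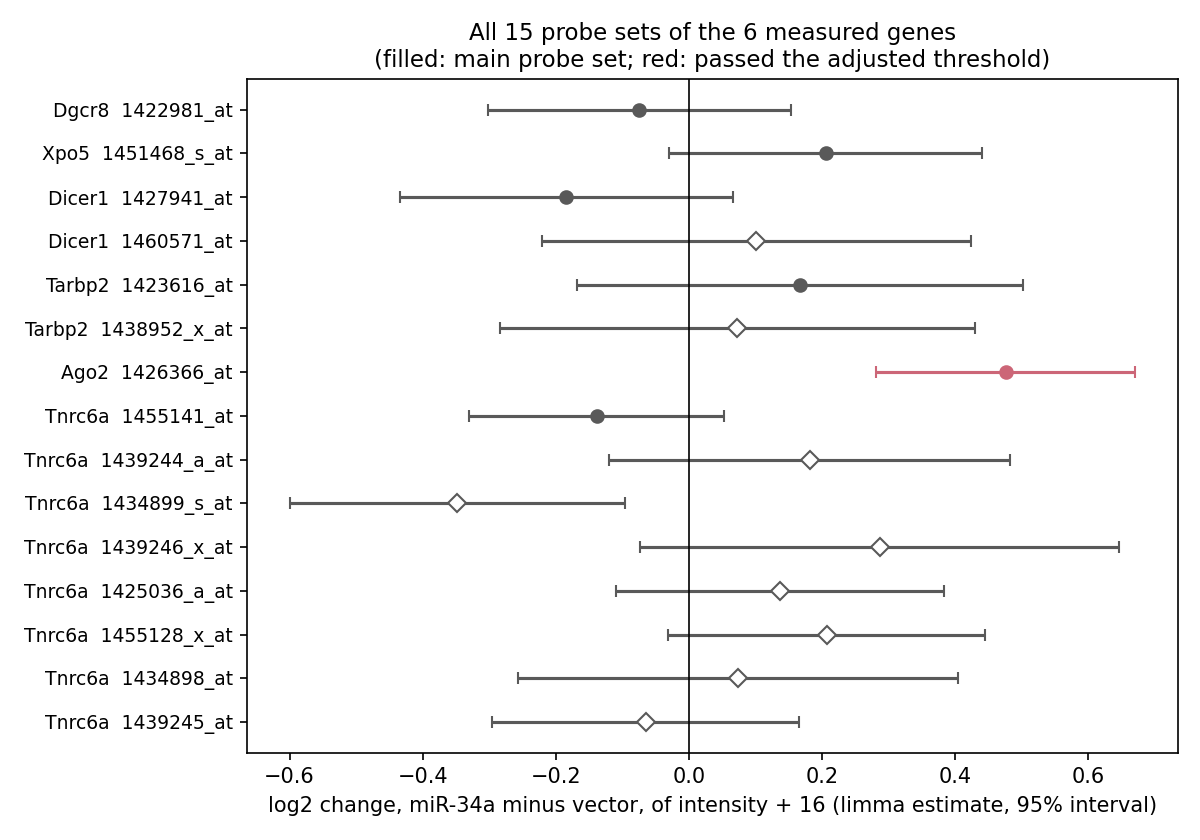
Log2 change with its 95% interval (limma, fitted over all probe sets of 1 gene) for the 15 probe sets of the 6 measured genes. The Ago2 probe set, at 0.48, is the only one past the threshold, and the 8 Tnrc6a probe sets run from -0.35 to 0.29.

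Other genes of the pathway were read from 7 lists, chosen for their roles, which held 155 genes, 120 of them measured. Of these 120, 8 were higher and 20 lower, 23.3% against 11.7% of all genes, and their median change was -0.056. With median centring 4 were higher and 26 lower. With the lowest 30% of genes by level left out, 9 were higher and 21 lower, while 17.9% of all genes kept passed. In limma 0 of the 120 passed as higher when any 1 of the miR-34a arrays was left out. When miR-34a 1, 2 or 3 was left out, 4, 10 and 5 passed as lower, while 255, 667 and 226 of all genes passed. When vector 1, 2 or 3 was left out, 22, 11 and 10 passed as lower and 11, 5 and 2 as higher, while 2133, 1256 and 631 of all genes passed.

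Among the 17 measured nuclear partners, 8 were lower and 1 higher, with a median change of -0.33. This list held the largest share of calls of the 7, 52.9% against a background of 11.7%. With the lowest 30% of genes by level left out, 8 of its 16 remaining genes were lower and 1 higher, against a background of 17.9%. Most of its members are splicing and RNA-binding factors with wide roles in messenger RNA processing. Hnrnpa2b1, an RNA-binding protein reported to bring the Microprocessor to marked transcripts, fell from 9406, 10571 and 8770.1 to 5699.8, 5750.3 and 5459. Its change was -0.76 ± 0.093 (SE; limma adjusted p = 0.00635), and all 4 of its probe sets passed as lower. Tardbp, which encodes the RNA-binding protein TDP-43, changed by -0.68 ± 0.088 (SE; adjusted p = 0.00750), with 2 of 4 probe sets past the threshold. The splicing factor Srsf1 changed by -0.58, with all 6 of its probe sets past the threshold, from -2.11 to -0.58.

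Smad3, a signal transducer of TGF-beta, fell by 0.71 on the log2 scale, and its second probe set changed by -0.26. The single higher member was Adar, the RNA editing enzyme that can act on microRNA precursors, at 598, 467 and 530.2 in vector and 817, 875 and 808 in miR-34a arrays. Its change was 0.64 ± 0.11 (SE; limma adjusted p = 0.0145), and the call was lost when miR-34a 1, 2 or 3 was left out. Over the 6 fits without 1 array the list's lower calls ran from 2, without miR-34a 1, to 8, without vector 1. Hnrnpa2b1 and Tardbp passed in all 6, Smad3 in 5 and Srsf1 in 4.

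Of 14 measured genes of nuclear transport, 3 were lower and 0 higher, 21.4% against 11.7% of all genes. In limma 5 were lower and 2 higher at an unadjusted p under 0.05, beside 11.3% and 17.0% of all genes. With the lowest 30% of genes by level left out, all 14 remained, with 3 lower and 0 higher. Of all genes kept, 17.9% passed. Exportin-5 works with the small GTPase Ran, and Ran itself changed by -0.042 ± 0.075 (SE; limma adjusted p = 0.764). Ranbp1, a cofactor of the Ran cycle, changed by -0.51 ± 0.094, the protein exporter Xpo1 by -0.39 ± 0.097 and Cse1l, the export receptor of importin alpha, by -0.35 ± 0.083 (SE). None of the 3 kept its call without miR-34a 1 or miR-34a 3.

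Of 18 measured Dicer partners and Argonaute loading factors, the RNA helicase Dhx9 and the chaperone Dnaja2 were lower and 0 were higher. This share, 11.1%, was near the 11.7% of all genes. In limma 6 were lower and 2 higher at an unadjusted p under 0.05, beside 11.3% and 17.0% of all genes. With the lowest 30% of genes by level left out, all 18 remained, with 3 lower and 1 higher. Of all genes kept, 17.9% passed. With median centring 4 passed as lower and 0 as higher, and with array weights 4 and 3. With a robust variance trend or the mean of all probe sets these were 4 and 1. Dhx9 read 5189, 5464 and 5567 in vector and 3457, 3443 and 3223 in miR-34a arrays. Its change was -0.68 ± 0.077 (SE; adjusted p = 0.00596), and it passed in all 6 fits without 1 array. The 3 Dhx9 probe sets ran from -1.14 to -0.088, and 2 passed. Dnaja2 changed by -0.51 ± 0.13 (SE; adjusted p = 0.0425) and passed in 3 of the 6 fits without 1 array. Prkra, which like Tarbp2 is an RNA-binding partner of Dicer1, did not pass, at 0.22 ± 0.099 (SE; adjusted p = 0.194).

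The deadenylation and decapping list had 29 measured members, with 3 higher and 1 lower, 13.8% against 11.7% of all genes. With the lowest 30% of genes by level left out, 3 of 26 were higher and 1 lower, while 17.9% of all genes kept passed. With median centring 1 passed as higher, with array weights 6 and with replicate number as a block 0. Its median was 0.11, and 0.015 with median centring. Cnot3, a subunit of the CCR4-NOT deadenylase, read 907, 1099 and 905 in vector and 1367, 1429 and 1403 in miR-34a arrays, a change of 0.53 ± 0.098 (SE; limma adjusted p = 0.0199). The deadenylase Cnot6l changed by 0.42 ± 0.091, with 4 probe sets from -0.33 to 0.42. The LIM protein gene Limd1, a partner of Argonaute and decapping factors, changed by 0.40 ± 0.091, with both probe sets past the threshold. The ubiquitin ligase subunit Cnot4 changed by -0.61 ± 0.14, with 3 of 5 probe sets lower. None of these 4 calls was kept when miR-34a 1, 2 or 3 was left out. The paralogs of Tnrc6a did not pass: Tnrc6b changed by 0.22 ± 0.10 (SE; adjusted p = 0.224) and Tnrc6c by 0.23 ± 0.16 (SE; adjusted p = 0.398).

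Among 16 measured RNA-binding partners of silencing complexes 2 were lower and 2 higher, 25% against 11.7% of all genes. When each gene was the average of its probe sets, 1 was lower and 0 higher. With the lowest 30% of genes by level left out, all 16 remained, with 2 lower and 2 higher. Of all genes kept, 17.9% passed. Fmr1, the translational repressor lost in fragile X syndrome, fell from 1947, 2056 and 2149 to 1200.5, 1042 and 1193, a change of -0.83 ± 0.090 (SE; limma adjusted p = 0.00546). It passed in all 6 fits without 1 array, but its 3 probe sets ran from -0.83 to 1.27. Elavl1, an RNA-stabilising protein, changed by -0.39 ± 0.078, with both probe sets lower. The RNA-binding genes Igf2bp3 and G3bp2 changed by 0.46 ± 0.11 and 0.36 ± 0.090 (SE), each call kept in 1 of the 6 fits. The 4 Igf2bp3 probe sets ran from -0.11 to 0.46, and 1 passed. Those of G3bp2, 3 in number, ran from 0.12 to 0.36, and 1 passed.

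The list of microRNA modification and turnover had 4 lower and 2 higher of 19, 31.6% against 11.7% of all genes. With the lowest 30% of genes by level left out, 4 of 17 were lower and 2 higher, while 17.9% of all genes kept passed. Pnpt1, a mitochondrial exoribonuclease, changed by -0.57 ± 0.088, the exosome subunits Exosc7 and Exosc2 by -0.78 ± 0.15 and -0.43 ± 0.10, and the exonuclease Eri1 by -0.48 ± 0.12 (SE). The exosome subunit Exosc4 changed by 0.44 ± 0.087 and the exonuclease-like gene Eri3 by 0.43 ± 0.082. Second probe sets of Pnpt1 and Eri3 changed by 0.075 and -0.067. Apart from Pnpt1, which passed in 4, each of these passed in at most 2 of the 6 fits without 1 array. In the PIWI and piRNA list 0 of 7 genes passed in limma, beside 11.7% of all genes. At an unadjusted p under 0.05 in limma 1 was lower and 0 higher, beside 11.3% and 17.0% of all genes. The lowest p values there were those of Tdrd7, at -0.39 ± 0.15 (SE; adjusted p = 0.146), and Asz1, at -0.15 ± 0.097 (SE; adjusted p = 0.370).

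**Figure D4:**
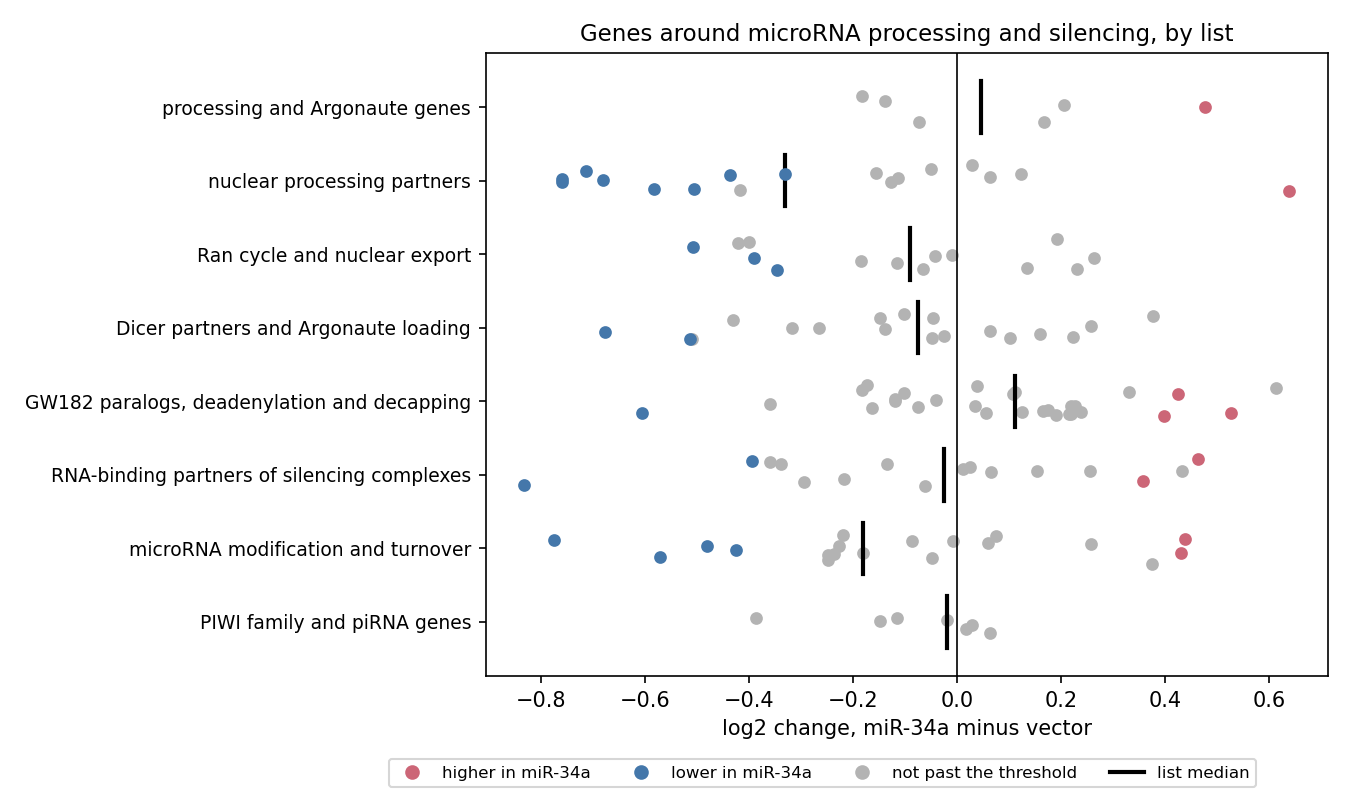
Log2 change (miR-34a minus vector, horizontal axis) of each measured gene, 1 point per gene, by list, with the list median as a bar and heights spread at random. Of the nuclear partners 8 of 17 passed as lower, while the processing and Argonaute genes show 1 call, Ago2.

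The genes whose log2 levels followed Ago2 most closely over the 6 arrays were Pi4k2a (Pearson's r = 0.996), Rtf2 (0.995) and Spryd3 (0.994). For Dicer1 they were Psme4 (0.994), Rwdd4a (0.981) and Exoc8 (0.979). These were the highest of 12393 genes over 6 arrays that share the same 2 groups. Rtf2 and Spryd3 passed as higher, at 0.56 and 0.36, and Pi4k2a at 0.29 did not (limma adjusted p = 0.0509). The 3 genes nearest to Dicer1 did not pass, with changes from -0.25 to -0.14.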

How the data were processed

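RNA was labelled with biotin by the Affymetrix protocol, per the labels. The authors deposited 1 table of intensities, which are linear; how they were summarised and scaled is not given in the sources used here. Without detection calls, dim probe sets cannot be separated from background. The table holds 22690 probe sets. Sample titles gave the groups and replicate numbers. Outside the 64 controls, 20380 probe sets carried 1 gene symbol; 20351 of these were brought up to date by Entrez identifier through RefSeq's table for GRCm38.p6, and 29 were kept as annotated.

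Tests used log2(intensity + 16), a scale that makes changes of low genes look smaller. limma 3.58.1 (lmFit, eBayes; R 4.3.3) was run two-sided with 2 groups and no block, and p-values were adjusted by Benjamini-Hochberg over 12393 genes, or over the 20380 probe sets where a single probe set is discussed. The threshold was 0.05. With 3 arrays a group, their number sets the precision. Within-array ratios were tested by exact permutation (SciPy 1.17.1). Simulated data shaped like these arrays served to check the gene fit, with 200 of 12393 genes changed: recovery was 0% at a log2 change of 0.5, 74% at 1 and 96% at 2, and 0, 13 and 10 unchanged genes were called. The unadjusted p that passes after adjustment depends on how many genes pass, which was 1456 in the real data.

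The 10 genes, the 7 pathway lists, the 8 cell type lists and the tests were chosen with earlier results of these data known. The text names each measured member; per pathway list, called genes up to 4 per direction by smallest p, or the 2 with the smallest p where none passed; called genes of the cell type lists; and the 3 genes closest in correlation to Ago2 and to Dicer1. Ran, Prkra, Tnrc6b, Tnrc6c, Krt8, Krt18, Cdh1, Esrp1 and Elane were named after their values were seen. Alternatives comprised other normalizations (quantile, median centring), a filter on the lowest 30% by level, pseudocounts of 1 or 64, averaging a gene's probe sets, a robust trended variance, array weights, a block on replicate number, the omission of each array in turn, and a threshold of 0.1. The within-array ratios and the alternatives for called probe sets were added after seeing the data. Figures were drawn in Python 3.11.15 with matplotlib 3.10.9.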

Additional observations from a re-analysis of the deposited data

How the results depend on the processing

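Ago2 kept its sign in all 15 alternatives that were fitted, from 0.38 with median centring to 0.50 without vector 1, and kept its call in 11. With the replicate block its change was 0.48 with an adjusted p of 0.0633, so 0 of the 6 measured genes passed. The block also left 0 of the pathway genes higher and 6 lower, 0 member probe sets higher, and 522 of all genes in place of 1456. Arrays with the same replicate number did not deviate together (correlations of -0.168, -0.0935 and -0.0812). With so few arrays these correlations cannot settle whether the numbers pair the samples, and the labels do not say. With array weights 2 of the measured genes passed as higher, Ago2 and Xpo5, 18 pathway genes were higher and 31 lower, and 1 member probe set was lower; 3238 of all genes then passed. With median centring 4 pathway genes were higher and 1 member probe set was lower, and with an adjusted p under 0.1 as the threshold 15 pathway genes were higher and 1 member probe set was lower. With the mean of all probe sets Tnrc6a changed by 0.042, the single change of sign among the measured genes, where 5 of its 8 probe sets were above 0. Leaving out each array in turn gave 0 to 1 measured genes higher, 0 to 11 pathway genes higher, 4 to 22 lower, and 0 to 2 member probe sets higher. Under the other alternatives these total counts stayed within 1.5 times, but counts of single lists did not. With the mean of all probe sets 4 Dicer partners were lower and 1 higher, in place of 2 and 0, 1 RNA-binding partner was lower and 0 higher, in place of 2 and 2, and 1 turnover gene was higher in place of 2. The robust variance trend gave 4 lower and 1 higher Dicer partners, the filter on low levels 1 higher Dicer partner, and a pseudocount of 1 gave 1 higher RNA-binding partner. With the lowest 30% of genes by level left out, Dgcr8 was not tested. Why the counts moved was not tested. Fits without 1 array have fewer samples, but without vector 1 more genes passed, 2133 in place of 1456. Signal over background is unknown here, since no detection calls were used.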
